A study of Mus musculus with 4 samples.

Results

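Gpnmb-high nuclei are myeloid nuclei of the brain lesion that carry many transcripts of Gpnmb, a transmembrane glycoprotein of lysosomes and melanosomes that phagocytes make when they digest large amounts of cell debris. They were chosen by counts of unique molecular identifiers (UMIs, each standing for 1 captured transcript). A lesional nucleus was a member with at least 757 gene UMIs, 5 or more Gpnmb UMIs and 2 or more UMIs in sum of the myeloid genes Csf1r, Inpp5d, Apbb1ip and Itgam. It also had to have 0 UMIs of Cd163, F13a1 and Flt3, which mark border-associated macrophages and dendritic cells, and at most 1 UMI in sum of Bnc2, Slc17a7, Gad2 and Aqp4, which mark fibroblasts, neurons and astrocytes. The rule found 948 nuclei among 16490 lesional nuclei and 22905 nuclei of the whole series. Of these, 340 came from the library labelled control and 608 from the library labelled Cxcl12-cKO.

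Both libraries came from mouse brain at 21 days post-injury (dpi) after a photothrombotic lesion, in which light activates a circulating dye and closes cortical vessels. The control mice carry the genotype label WT, and the Cxcl12-cKO mice carry Col1a2(creER) with Cxcl12(flox). CreER is a tamoxifen-inducible recombinase, here driven by a promoter of fibroblasts and not of macrophages, and tamoxifen was given in courses after injury. The study used several kinds of control mice, and the sources used here give neither the kind that made this library nor the exact age of these adult mice. In each genotype, tissue of 1 male and 1 female mouse was pooled, nuclei were sorted by DNA stain, and lesion and parenchyma nuclei were mixed at 75% and 25% under separate tags. With 1 library per genotype there was no replicate. No test between the genotypes was therefore made, and every interval given is a 95% interval that covers counting error only.

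Macrophages and microglia that take up dead cells and myelin pass the cargo to lysosomes, where vacuolar proton pumps acidify it and lipases and cathepsins break it down. The cholesterol and fatty acids set free are stored in droplets or exported, under receptors such as PPARγ and LXRα. Cells of this kind gather in infarcts, fibrotic organs and tumours, where those that carry Gpnmb, Spp1, Fabp5, Cd63, Cd9 and Trem2 are called scar-associated macrophages (SAMs). Microglia, the resident phagocytes of the brain, can take on many of the same genes, but they depend on the transcription factor Sall1 and carry P2ry12, Siglech and Tmem119 when at rest.

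The lesional matrices held 34769874 UMIs over 8608 barcodes in control and 31995274 UMIs over 8421 barcodes in Cxcl12-cKO. Of these barcodes, 8321 and 8169 reached the UMI minimum. The libraries shared 47 barcodes, 1 of which was Gpnmb-high in both. The targeted gene went against the label. In units of counts per 1000000 gene UMIs (CPM), Cxcl12 in lesional nuclei with 2 or more Bnc2 UMIs stood at 94.4 CPM under the control label and 196 CPM under the Cxcl12-cKO label. These levels came from 1692 and 3445 UMIs, and their log2 ratio was 1.05 (0.97 to 1.14). The sources used here do not say which part of the gene is deleted relative to the counted 3′ end, so every direction between the libraries below is a direction between labels. Nuclei were assigned to the female or the male mouse of a pool by UMIs of Xist against 4 Y-linked genes, and sex and mouse cannot be told apart.

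The myeloid label follows from the rule, and the shares of nuclei with a UMI of single genes describe it. In Gpnmb-high nuclei, 47.5% had a UMI of Csf1r, the receptor that macrophages and microglia need to survive, against 4.12% of the Bnc2-bearing nuclei, which should lack it and were as deep (median 3181 and 3311 UMIs). Itgam, the αM integrin, was found in 33.8% against 2.58%. Both genes were part of the rule, so these shares describe the choice. Genes outside the rule separated the same nuclei: Atp6v0d2 was found in 75.3% against 5.76%, Mmp12 in 25.3% against 2.62% and Fabp4 in 17.5% against 0.702%. These genes also lead the contrast with other myeloid nuclei below, and the rule itself leaves out the Bnc2-bearing nuclei. Their shares are therefore a description and no separate check of the label. A UMI of the T cell list was found in 5.27% of the members and 5.46% of the Bnc2-bearing nuclei, which is the background.

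The word macrophage was not fully borne out, because it leaves out microglia. A UMI of P2ry12, Siglech, Sall1 or Tmem119 was found in 24.6% of Gpnmb-high nuclei and 7.20% of Bnc2-bearing nuclei, and a UMI of Sall1 or its relative Sall3 in 11.2% and 2.25%. Ccr2, the receptor that draws monocytes from blood, had 10 UMIs in all 948 nuclei, while the summed monocyte list stood at 557 and 539 CPM in control and Cxcl12-cKO, against 687 and 733 CPM in the Gpnmb-zero nuclei described below. They are therefore called Gpnmb-high nuclei below.

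A lone Gpnmb UMI did not mark myeloid nuclei, whereas 5 or more were rare in other nuclei. A UMI was found in 10.1% of the 8970 Bnc2-bearing lesional nuclei, 20.4% of the 707 lesional nuclei with 2 or more Aqp4 UMIs and 8.14% of the 3552 parenchymal nuclei with 3 or more Slc17a7 UMIs. At 5 or more UMIs these shares were 1.69%, 3.39% and 0.0563%, the last being 2 nuclei at a median depth of 22504 UMIs. Away from the lesion there was almost no material to choose from. In the parenchyma, 30 control and 43 Cxcl12-cKO nuclei passed the other terms of the rule, and 0 and 2 of them had 5 Gpnmb UMIs. A count of 0 of 30 allows a share of up to 10% by the limit of 3 counts used for zeros.

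Gpnmb-high nuclei were deeper than other myeloid nuclei. The median was 3104 UMIs in control and 3237 UMIs in Cxcl12-cKO, with a range of 795 to 17962 UMIs, against 1860 and 1791 UMIs in the 1321 Gpnmb-zero nuclei, which passed every other term and had no Gpnmb UMI. A count threshold picks deeper nuclei by construction. Mitochondrial transcripts made up 6995 and 6259 CPM in the members and 19166 and 21029 CPM in the Gpnmb-zero nuclei. For ribosomal protein transcripts these levels were 3681 and 5271 CPM against 11277 and 9034 CPM. Whether the genes called lower below follow such levels was not tested. Nuclei with UMIs of both sexes, a sign of 2 nuclei in 1 droplet, made up 9.41% and 13% of the members and 9.66% and 11.2% of all lesional nuclei. These were kept.

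The share of Gpnmb-high nuclei among lesional nuclei was 4.09% (3.67 to 4.53) in control and 7.44% (6.88 to 8.03) in Cxcl12-cKO, a log2 ratio of 0.87 (0.67 to 1.06). All lesional nuclei were about as deep in both libraries, with medians of 2941 and 2923 UMIs. With Gpnmb counted after thinning every nucleus to 757 UMIs, and 2 Gpnmb UMIs required, the shares were 3.38% and 6.56%, a log2 ratio of 0.96 (0.75 to 1.17). The gap was wider between the female mice, and this difference between the sexes was not tested. In female nuclei the share was 3.06% (106 of 3460) in control and 9.43% (322 of 3413) in Cxcl12-cKO, a log2 ratio of 1.62 (1.30 to 1.95). In male nuclei it was 5.89% (164 of 2786) and 6.38% (163 of 2554), a log2 ratio of 0.12 (-0.21 to 0.44). Male nuclei therefore had the higher share in control, by 0.94 (0.58 to 1.31) on the log2 scale, and the lower share in Cxcl12-cKO, by -0.56 (-0.84 to -0.29). With 1 mouse of each sex, genotype, sex and mouse cannot be told apart.

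The female mice were further apart than the male mice within the myeloid nuclei as well. Among the nuclei that passed the other terms, 24.3% (22.1 to 26.6) in control and 36.1% (33.8 to 38.5) in Cxcl12-cKO were Gpnmb-high, a log2 ratio of 0.57 (0.38 to 0.77). The female mice gave 18.9% and 36.5%, and the male mice 38.3% and 42.2%. Here male nuclei had the higher share in control, by 1.02 (0.66 to 1.38) on the log2 scale, while in Cxcl12-cKO the interval of 0.21 (-0.07 to 0.49) included 0. The other classes differed less. Nuclei with 1 to 4 Gpnmb UMIs made up 4.15% and 5.73% of lesional nuclei, and Gpnmb-zero nuclei 8.59% and 7.42%. Border-associated nuclei, the macrophages of meninges and vessels, which have 2 or more UMIs of Cd163 and F13a1 in sum, made up 1.48% and 1.40%. Since a share is relative to all nuclei sorted, more Gpnmb-high cells and fewer cells of other kinds cannot be told apart.

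**Figure D1:**
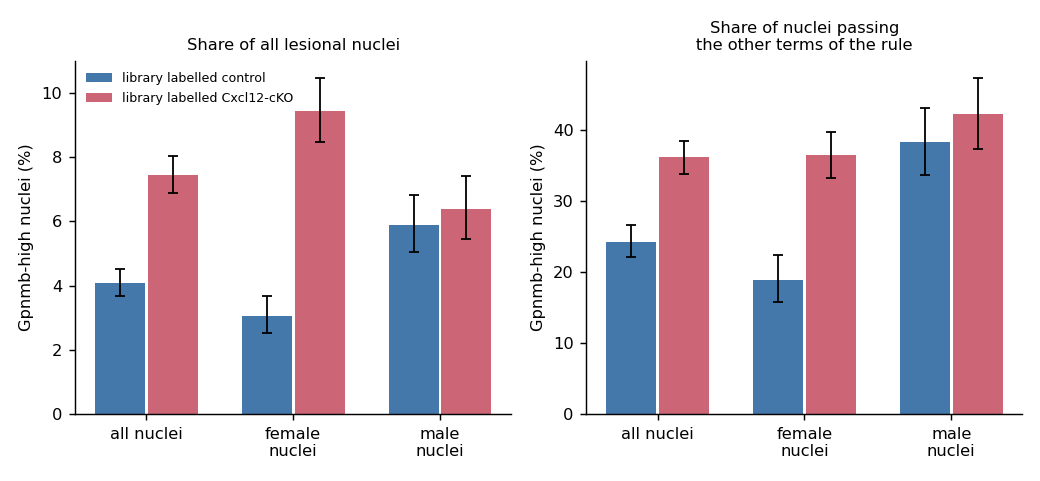
Share of Gpnmb-high nuclei in percent, among all lesional nuclei (left) and among nuclei that pass the other terms of the rule (right), for all nuclei and for nuclei of the female and the male mouse, with bars for each library and exact 95% binomial intervals. The female bars stand furthest apart (3.06% and 9.43% of lesional nuclei), whereas the intervals of the male bars overlap.

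Most of these genes were graded over the number of Gpnmb UMIs. From nuclei with 0 Gpnmb UMIs over bins of 1 to 2, 3 to 4, 5 to 6, 7 to 9, 10 to 19 and 20 or more, Atp6v0d2 stood at 137, 406, 673, 761, 1205, 1874 and 2725 CPM. Mamdc2, an extracellular MAM-domain protein, stood at 46.0, 118, 318, 328, 649, 967 and 1593 CPM over the same bins. Fabp4, a fatty acid carrier, ran from 1.42 CPM to 151 CPM and was higher in every bin than in the bin before. Just outside and just inside the threshold, at 3 to 4 and 5 to 6 Gpnmb UMIs, the 270 and 207 nuclei had 250 and 206 CPM of Mmp12, 202 and 337 CPM of Cd36 and 595 and 651 CPM of Lgals3.

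Microglial genes ran the other way. Siglech, a sialic acid receptor, stood at 123 CPM at 0 Gpnmb UMIs, 13.3 CPM at 3 to 4 and 2.52 CPM at 20 or more. Cx3cr1, the fractalkine receptor, stood at 429, 325, 273, 240, 151, 94.3 and 48.7 CPM over the 7 bins. Some genes were not graded. Igf1, a growth factor, stood at 508 CPM in the Gpnmb-zero nuclei and between 999.6 and 1310 CPM in all other bins, and Ms4a7, a membrane gene of infiltrating and border macrophages, at 255 CPM and between 545 and 682 CPM. Apoe, the main lipid carrier of brain phagocytes, stood at 5824 CPM in the Gpnmb-zero nuclei and 5821 CPM at 5 to 6 Gpnmb UMIs, but at 908 CPM at 20 or more. The libraries went opposite ways between 0 and 5 to 6 Gpnmb UMIs. Apoe fell from 7516 to 3166 CPM in control and rose from 3730 to 7769 CPM in Cxcl12-cKO. The median depth ran from 1835 to 4731 UMIs over the bins, and its part in these levels was not tested.

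**Figure D2:**
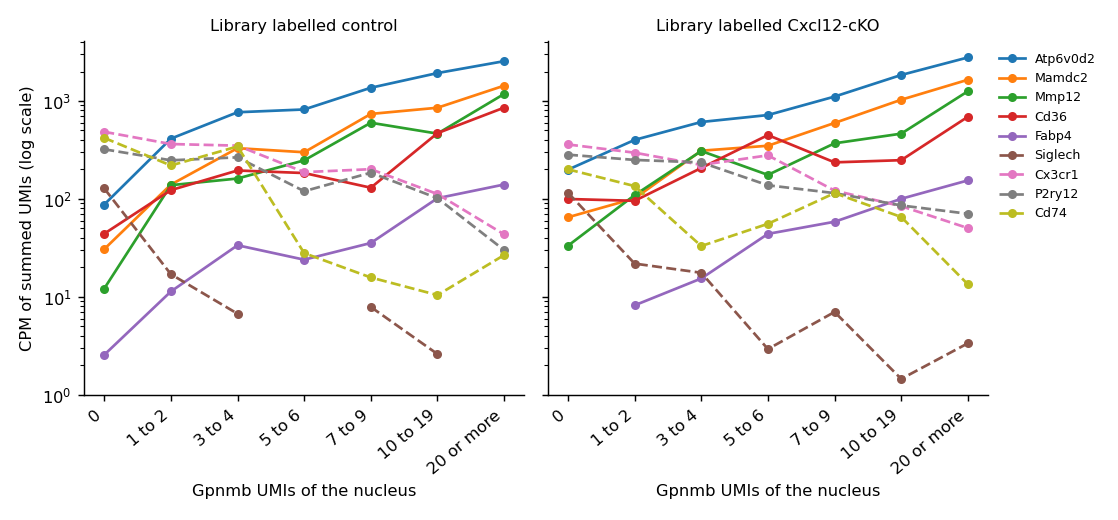
Level of 9 genes in CPM (log axis) by the number of Gpnmb UMIs of a nucleus, in each library, with solid lines for Atp6v0d2, Mamdc2, Mmp12, Cd36 and Fabp4 and dashed lines for Siglech, Cx3cr1, P2ry12 and Cd74, and with levels of 0 not drawn. Solid lines end higher and dashed lines end lower than they start, not always step by step, for Atp6v0d2 from 137 to 2725 CPM and for P2ry12 from 304 to 60.4 CPM in both libraries together.

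Gpnmb-high nuclei were set against the 1321 Gpnmb-zero nuclei (715 control and 606 Cxcl12-cKO). A gene was called where its CPM differed by at least 2-fold in the same direction in both libraries. Of 10532 genes, 290 were called higher (2.75%) and 884 lower (8.39%). These shares over all genes are the background for each list count below. The rule chose the nuclei on this contrast, so these counts and the values below describe the members. Among nuclei between the quartiles of the members' depth (2375 to 4480 UMIs), 194 of the 290 and 617 of the 884 genes were again past 2-fold in both libraries, judged with no new UMI minimum. With the minimum applied to those nuclei, 436 genes in all were called lower.

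The genes furthest above Gpnmb-zero nuclei were of mixed function, with Fabp4, Mmp12, Mamdc2, F7 and Atp6v0d2 leading. Mmp12, the macrophage elastase, stood at 628 CPM in control and 707 CPM in Cxcl12-cKO, against 12.2 and 33.3 CPM in Gpnmb-zero nuclei, a log2 ratio of 4.97 (4.61 to 5.37). Atp6v0d2, a subunit of the vacuolar proton pump, stood at 1731 and 1904 CPM against 87.7 and 199 CPM (3.75, 3.60 to 3.90). Fabp4 stood at 81.0 and 105 CPM against 2.56 and 0 CPM. In Cxcl12-cKO this was at least 44.2-fold higher, measured against a floor of 3 UMIs over the group.

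Other leading genes were less abundant. Mfge8, which bridges phagocytes to dying cells, stood at 54.0 and 105 CPM against 6.40 and 6.34 CPM. Mcoln3, an endolysosomal cation channel, stood at 44.7 and 57.5 CPM against 3.84 and 8.72 CPM. Stra6l, a retinol-binding protein receptor, stood at 110 and 109 CPM against 7.68 and 15.1 CPM. Among the 15 genes furthest above were also F7, coagulation factor VII (77 UMIs against 4), Wfs1, an endoplasmic reticulum protein, and Gadd45a, a growth-arrest gene.

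**Figure D3:**
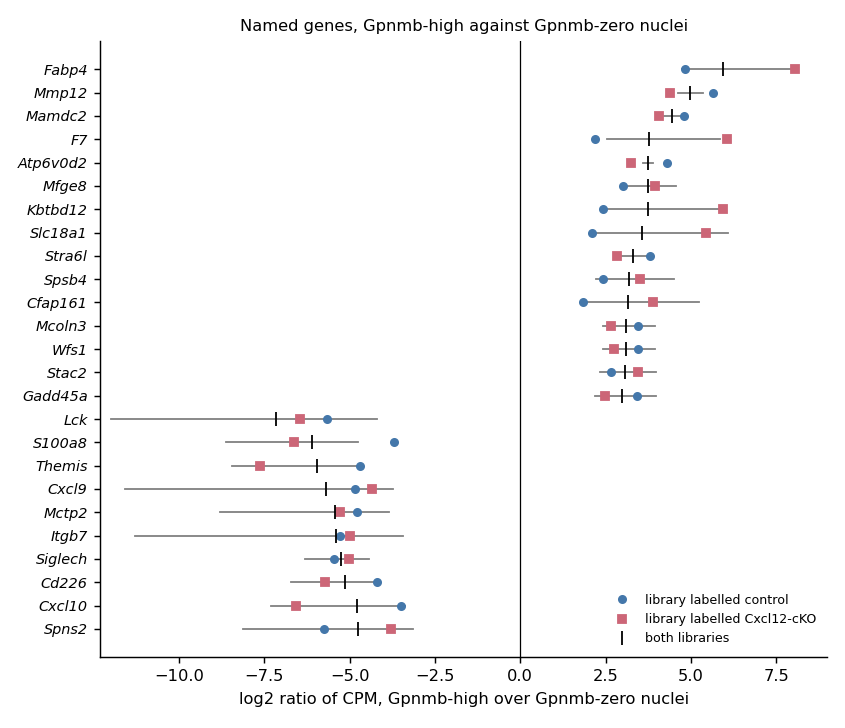
Log2 ratio of CPM in Gpnmb-high over Gpnmb-zero nuclei for the genes named by rule, with dots for control, squares for Cxcl12-cKO, black ticks for both together and grey 95% counting intervals of both together, shortened where they run off the axis. Fabp4 (5.93), Mmp12 (4.97) and Mamdc2 (4.45) lie furthest to the right, and genes of T cells, neutrophils and interferon-induced chemokines lie furthest to the left.

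Most SAM genes did not follow Gpnmb. Of the 5 other genes of that list, Spp1 and Fabp5 were called higher and none lower. Spp1, the secreted phosphoprotein osteopontin, stood at 337 and 437 CPM against 108 CPM in Gpnmb-zero nuclei of both libraries (1.90, 1.72 to 2.08). Fabp5, another fatty acid carrier, stood at 106 and 121 CPM against 37.2 CPM. Trem2, the lipid receptor of microglia and macrophages, was level with them, at 168 and 178 CPM against 187 CPM (-0.10, -0.27 to 0.07), as were the tetraspanins Cd9 (321 and 300 against 271 CPM) and Cd63 (116 and 108 against 122 CPM). The list median was 0.18, and the median of all genes was -0.09.

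Lysosomal genes were partly higher. Of 28 genes, 5 were called higher and 1 lower, beside 2.75% and 8.39% of all genes. The list median was 0.61, beside -0.09 for all genes. Among proton pump subunits, Atp6v1a stood at 447 and 468 CPM against 193 CPM. Among hydrolases, Lipa, the acid lipase that frees cholesterol, stood at 313 and 299 CPM against 109 CPM, and Gla, a galactosidase for glycolipids, at 38.8 and 42.6 CPM against 10.6 CPM. Cathepsins differed among themselves. Ctsl stood at 304 and 355 CPM against 138 CPM, Ctsd at 923 and 863 against 872 CPM, and Ctsc, which activates granule proteases, was the gene called lower, at 136 and 111 against 293 CPM.

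Of 10 genes of the MiT/TFE factors, which switch on lysosome genes, and their nutrient-sensing regulators, 2 were called higher. These were Fnip2, a folliculin partner, at 1985 and 2141 CPM against 681 CPM (1.62, 1.54 to 1.69), and Rragd, a Rag GTPase, at 44.7 and 39.6 CPM against 11.3 CPM. The factors themselves differed less, with log2 ratios of 0.52 for Mitf, 0.97 for Tfec and 0.51 for Tfeb. Mitf and Gpnmb are also genes of melanocytes, but the summed melanocyte list was at 6.75 and 6.39 CPM in Gpnmb-high nuclei and 19.2 and 13.5 CPM in Gpnmb-zero nuclei. The rule has no term that leaves out osteoclasts. The summed osteoclast list was higher, at 2224 and 2406 CPM against 606 and 723 CPM. Of its 6 genes with enough UMIs, 1 was called higher and none lower, with a median of 0.28. The higher sum therefore does not describe the list as a whole.

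Of 22 lipid genes with enough UMIs, 7 were called higher and none lower, with a median of 0.66. Cd36, a scavenger receptor for oxidized lipid, stood at 434 and 443 CPM against 69.1 CPM (2.67, 2.46 to 2.89). Pparg, the fatty acid-sensing nuclear receptor, stood at 392 and 376 CPM against 85.4 CPM (2.16, 1.96 to 2.36), and Nr1h3, which encodes LXRα, at 27.8 and 28.1 against 7.79 CPM. Genes of storage were higher too. Plin2, the coat of lipid droplets, stood at 345 and 400 CPM against 113 CPM, and Soat1, which esterifies cholesterol, at 529 and 521 against 221 CPM. The cholesterol exporters Abca1 and Abcg1, at log2 ratios of 0.65 and 0.71, were not called.

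Of 20 genes of disease-associated microglia, 5 were called higher and 2 lower, beside 2.75% and 8.39% of all genes. Lgals3, the galectin of damaged lysosomes, stood at 1056 and 1091 CPM against 212 CPM, and Itgax, an integrin, at 142 and 141 against 36.5 CPM. The 2 lower were Fth1, ferritin heavy chain (207 and 303 against 619 CPM), and Cd52, a small surface glycoprotein (16.9 and 31.9 against 82.9 CPM). Apoe pooled to a log2 ratio of -1.50 but was not called, since it was at -2.09 in control and -0.76 in Cxcl12-cKO.

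Secreted factors and proteases for repair and matrix turnover were partly higher. Of 10 growth factor genes with enough UMIs, 3 were called higher and 1 lower. Pdgfa, a ligand for fibroblasts and oligodendrocyte precursors, stood at 95.3 and 95.4 CPM against 37.5 CPM, and Pdgfc at 258 and 302 against 108 CPM, whereas Tgfb1 was level, at 116 and 119 against 120 CPM. Of 12 protease genes, 3 were higher, among them Adam8 (149 and 156 against 45.0 CPM) and Plau, the urokinase (96.1 and 124 against 30.1 CPM). In iron handling, the ferrireductase Steap3 (370 UMIs against 96, log2 ratio 1.62) and the transferrin receptor Tfrc (66.6 and 67.3 against 28.7 CPM) were higher. Cxcr4, the receptor of the ligand encoded by Cxcl12, stood at 27.0 and 26.0 CPM against 8.15 CPM (1.67, 1.02 to 2.42).

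Genes of resting microglia were lower. Of 17 such genes, 15 were called lower and none higher, with a median of -1.65. P2ry12, the ADP receptor, stood at 105 and 92.8 CPM against 304 CPM (-1.65, -1.83 to -1.47), Cx3cr1 at 130 and 106 against 429 CPM, and Sall1 had 69 UMIs against 240 (-2.11). Siglech had 11 UMIs in Gpnmb-high and 346 in Gpnmb-zero nuclei. Only 595 of the Gpnmb-zero nuclei had a UMI of P2ry12, Siglech, Sall1 or Tmem119, and against those alone the list median was -2.42, which is lower by construction, since these genes belong to the list.

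Genes of monocytes and of antigen presentation were lower as well. Of 8 monocyte genes, 6 were called lower. Ccr2 stood at 3.37 and 2.56 CPM against 64.8 CPM (-4.45, -5.60 to -3.61). Of 7 MHC class II genes, 6 were lower, with a median of -2.88. Cd74, the invariant chain, stood at 19.4 and 53.2 CPM against 322 CPM. Of 12 MHC class I genes, 5 were lower, among them H2-K1 (99.5 and 104 against 266 CPM). None of these 3 lists had a member called higher.

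Of 33 genes of the interferon-γ (IFNγ) response, 8 were called lower and none higher, with a median of -0.82. The interferon-induced chemokines Cxcl9 and Cxcl10 had 1 and 3 UMIs in Gpnmb-high nuclei and 61 and 76 in Gpnmb-zero nuclei. Of the latter, 56 and 51 lay in control, and in male nuclei alone the log2 ratios were -0.99 and -0.25, against -5.68 and -4.77 over all nuclei. Of 12 inflammatory (M1-like) genes, 2 were lower. Il1b, the interleukin-1β gene, stood at 2.53 and 2.13 CPM against 31.2 CPM, and Cd86, a T cell costimulator, at 112 and 92.0 against 252 CPM. Of 6 M2-like genes, 2 were lower and none higher, so neither list stood above the Gpnmb-zero nuclei. Among complement genes, 4 of 10 were lower and 1 higher, with C1qa at 167 and 205 against 631 CPM.

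Part of the lower genes belong to other blood cells. Lck, a T cell kinase, had 0 UMIs in the members and 56 in Gpnmb-zero nuclei, at least 23.4-fold lower against a floor of 3 UMIs. Themis, another T cell gene, had 3 and 172 UMIs, and a UMI of the T cell list was found in 5.27% of members and 9.77% of Gpnmb-zero nuclei. S100a8, a neutrophil gene, had 3 and 192 UMIs, of which 184 lay in the Cxcl12-cKO library. Without T cell UMIs in the comparison, and with a Csf1r UMI required there (693 nuclei), 244 of the 290 higher genes and 412 of the 884 lower genes were past 2-fold again, with no new UMI minimum. Against the 595 nuclei with a microglial UMI these numbers were 262 and 419. Summed fibroblast genes stood at 326 and 190 CPM in the members and 950 and 356 CPM in the Gpnmb-zero nuclei.

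Several features were shared with the 237 border-associated nuclei and others were not. Those nuclei were chosen with no limit on Gpnmb and had a median of 0 and up to 105 Gpnmb UMIs. The part of their Gpnmb-bearing nuclei in the ratios below was not tested. Mrc1, the mannose receptor of border-associated macrophages, stood at 85.2 and 108 CPM in Gpnmb-high nuclei, a log2 ratio of -4.06 to border-associated nuclei, and Ms4a7 was level with them (0.02). Spp1 and Msr1, a scavenger receptor, were nearly level as well, at 0.28 and 0.11, although both were above Gpnmb-zero nuclei. Mmp12 (4.52), Mamdc2 (2.78), Cd36 (2.68), Lpl, the lipoprotein lipase (2.13), Itgax (2.10) and Atp6v0d2 (2.10) were higher than in both. Pdgfc was the reverse, at 1.42 above Gpnmb-zero and -0.66 to border-associated nuclei.

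Clustering of the 948 nuclei by themselves, without Gpnmb, sex-linked, mitochondrial and ribosomal genes, gave 3 subclusters. Subcluster 1 held 469 nuclei, with F7, Hmga2, Anxa1, Klf8 and Fam83f leading. Subcluster 2 held 461 nuclei, with Apoc1, Lrguk, Pld5, Sall3 and Bcas1 leading. Bcas1 had 3 UMIs in subcluster 1 and 93 UMIs in subcluster 2. Subcluster 3 held 18 nuclei, in which summed cell cycle genes stood at 3541 CPM against 40.1 and 23.5 CPM in the others. Genes that build clusters differ between them by construction, so the values below describe the subclusters. Of 7999 genes, 580 were at least 2-fold higher in subcluster 2 than in subcluster 1 (7.25%) and 286 lower (3.58%).

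The nuclei of subcluster 2 carried microglial genes. Sall1 stood at 1.13 CPM in subcluster 1 and 39.8 CPM in subcluster 2, Sall3 at 1.13 and 43.5 CPM, and Tmem119 at 1.13 and 14.5 CPM. A UMI of Sall1 or Sall3 was found in 4 of 469 nuclei (0.853%) and 101 of 461 nuclei (21.9%), against 2.25% of Bnc2-bearing nuclei, at median depths of 3154 and 3311 UMIs (control and Cxcl12-cKO) in subcluster 1 and 3030 and 3048 UMIs in subcluster 2. Of 13 resting microglia genes with enough UMIs, 9 were at least 2-fold higher in subcluster 2. Cx3cr1 stood at 46.9 and 188 CPM, C1qa at 72.9 and 331 CPM, Apoe at 904 and 3397 CPM, and Cd86 at 45.8 and 158 CPM. P2ry12 differed less, at 69.0 and 130 CPM. Of the 35 members with 3 or more UMIs of oligodendrocyte precursor genes, 33 lay in subcluster 2 and 1 in subcluster 1. The leading Apoc1, an apolipoprotein, had 153 of its 216 UMIs in 1 nucleus.

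Some fat and matrix genes were higher in subcluster 1. Of 20 lipid genes with enough UMIs, 4 were at least 2-fold higher there than in subcluster 2, with a median log2 ratio of subcluster 2 over 1 of -0.18, as were 2 of 10 proteases (-0.41). Abca1 and Abcg1 were level, at 0.03 and 0.01, and Plin2 (-0.92), Soat1 (-0.61), Adam8 (-0.73) and Plau (-0.32) were under 2-fold. Pparg stood at 648 CPM in subcluster 1 and 95.4 CPM in subcluster 2, Cd36 at 725 and 120 CPM, Lpl at 960 and 186 CPM, Fabp4 at 163 and 31.4 CPM and Nr1h3 at 44.7 and 9.66 CPM. Ctsk, a collagen-digesting cathepsin, stood at 97.8 and 7.24 CPM, Anxa1, an anti-inflammatory annexin, at 263 and 10.9 CPM, Arg1, the arginase of M2-like macrophages, at 36.2 and 3.02 CPM, and Mamdc2 at 1818 and 193 CPM. St18, a zinc finger factor also known from oligodendrocytes, stood at 1211 and 161 CPM. Gpnmb itself, at 4509 and 3606 CPM, and Mitf, at 2347 and 1573 CPM, differed by less than 2-fold. Other genes that set the members apart were past 2-fold. Atp6v0d2 stood at 2661 and 1041 CPM, Mmp12 at 939 and 370 CPM and Lgals3 at 1470 and 657 CPM. Spp1 was the other way round, at 291 and 538 CPM. Ccr2 was near 0 in both, at 2.26 and 3.62 CPM.

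The subclusters took different shares of the libraries and mice. Subcluster 1 held 149 of 340 members in control (43.8%, 38.5 to 49.3) and 320 of 608 in Cxcl12-cKO (52.6%, 48.6 to 56.7). It held 30.2% of the female and 53.7% of the male members in control, and 49.1% and 59.5% in Cxcl12-cKO. As a share of lesional nuclei, subcluster 1 was at 1.79% and 3.92%, a log2 ratio of 1.13 (0.84 to 1.42), with female nuclei at 2.32 (1.77 to 2.92) and male nuclei at 0.27 (-0.17 to 0.70). Subcluster 2 was at 2.24% and 3.37%, a log2 ratio of 0.59 (0.32 to 0.87), with female nuclei at 1.14 (0.73 to 1.56) and male nuclei at -0.13 (-0.65 to 0.38).

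Since some genes that define the subclusters also differ between the libraries, the clustering was repeated without the 652 genes past 1.5-fold between them, a check chosen after the data were seen. The nuclei of subcluster 1 then fell mainly into clusters of 349 (106 control and 243 Cxcl12-cKO) and 129 nuclei (42 and 87), and those of subcluster 2 into a cluster of 452 nuclei (187 and 265). Of these, 332, 129 and 444 nuclei were in the original subcluster.

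**Figure D4:**
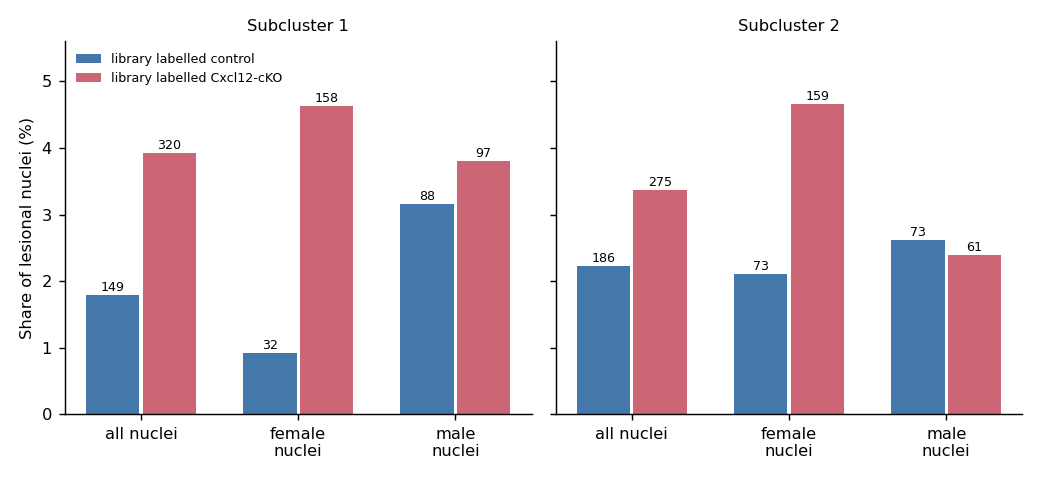
Subclusters 1 and 2 as a share of lesional nuclei in percent, for all nuclei and for the female and male mice of each library, with the counts of nuclei on the bars. In female nuclei subcluster 1 stood at 0.925% in control and 4.63% in Cxcl12-cKO, and in male nuclei at 3.16% and 3.80%.

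Between the libraries, the members differed little in some of the genes that set them apart and more in others. The comparison addressed whether Gpnmb-high nuclei differ between genotypes in IFNγ-response genes, a question the study put to lesional myeloid cells, and in inflammatory genes, which it put to SAMs. Of 8116 genes with at least 50 UMIs in the members, 343 were at least 1.5-fold higher in Cxcl12-cKO (4.23%) and 309 lower (3.81%), and 51.8% had the same sign in the female and the male nuclei. Atp6v0d2 had a log2 ratio of 0.14 (0.06 to 0.21), and Cd36 (0.03), Lgals3 (0.05) and Gpnmb (0.07) were nearer 0. Less abundant leading genes varied more. Mfge8 stood at 54.0 CPM in control and 105 CPM in Cxcl12-cKO, and F7 at 12.6 and 26.4 CPM. Stra6l was level, at 110 and 109 CPM, and Wfs1 was lower, at 59.0 and 49.8 CPM. None of the genes of the SAM, lysosome and lipid lists passed 1.5-fold. The lysosome list had a median of 0.10, which was -0.025 at a minimum of 10 Gpnmb UMIs.

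Genes of the IFNγ response leaned lower in the library labelled Cxcl12-cKO. Of 18 genes with enough UMIs, 17 were below control, 13 of them in both mice, beside 53% and 28.5% of all genes tested. The sizes were small, with a median of -0.27, and 1 gene passed 1.5-fold. The summed list stood at 1929 CPM in control and 1575 CPM in Cxcl12-cKO, a log2 ratio of -0.29 (-0.37 to -0.22). Irf8, a myeloid interferon regulatory factor, stood at 284 and 233 CPM (-0.29), Irf1, an early target of IFNγ, at 35.4 and 24.3 CPM (-0.55), and Rnf213, an interferon-induced ubiquitin ligase, at 266 and 202 CPM (-0.40). The gene past 1.5-fold was Rsad2, the antiviral viperin, at -1.13, but 19 of its 78 UMIs lay in 1 nucleus, and without that nucleus it was at -0.25.

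This difference was larger in the female mice and in subcluster 2, but neither gap in size was tested. The summed list stood at 2565 and 1773 CPM in female nuclei and at 1568 and 1330 CPM in male nuclei. It stood at 1626 and 1573 CPM in subcluster 1 and at 2227 and 1614 CPM in subcluster 2. Subcluster 2 held 68.9% of the female members in control and 49.4% in Cxcl12-cKO, and its part in the female difference was not tested. Over the Gpnmb-zero nuclei the list median was -0.46, further below 0 than in the Gpnmb-high nuclei. Iigp1, an interferon-induced GTPase under the UMI minimum, had 38 UMIs in 13 control nuclei and 5 UMIs in 5 Cxcl12-cKO nuclei. It was lower in both mice, at 61.1 and 2.5 CPM in female and 8.56 and 0 CPM in male nuclei.

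Of 9 inflammatory (M1-like) genes, 1 was lower and none higher, with a median of -0.21. The lower gene was Tlr2, a receptor for bacterial lipoproteins, at -0.62 (-1.43 to 0.22). Over the same 9 genes the median was -0.18 and -0.14 within subclusters 1 and 2. With the UMI minimum applied within each subcluster, which left fewer genes, it was 0.073 and 0.11. The summed M1-like list was level, at 791 and 762 CPM (-0.06, -0.17 to 0.06). All 5 M2-like genes with enough UMIs were above control, 3 of them in both mice, with a median of 0.35. Of all 8116 genes tested, 53% were below control. The sign was the same in both mice for 51.8% of all genes, with 28.5% below control in both. This median was 0.36 in female and 0.42 in male nuclei. The summed M2-like list stood at 267 and 357 CPM (0.42, 0.23 to 0.61). Of these genes only Arg1 passed 1.5-fold. It had 5 UMIs in 2 control nuclei and 64 UMIs in 13 Cxcl12-cKO nuclei, 4.22 and 27.3 CPM (2.57, 1.40 to 4.36). Of these, 28 lay in 1 nucleus with UMIs of both sexes, without which the log2 ratio was 1.75.

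Outside these lists, some ratios did not rest on 1 nucleus. The genes named by rule had to have the same sign in both mice, so that agreement is no support. Hmox1, the haem-degrading oxygenase, stood at 24.5 and 47.3 CPM (0.93, 0.35 to 1.59), with 26.6 and 62.5 CPM in female and 24.0 and 32.4 CPM in male nuclei. Fzd7, a Wnt receptor, had 9 UMIs in 9 nuclei and 47 UMIs in 45 nuclei (1.34, 0.35 to 2.61), but its interval included 0 in the male nuclei (-0.35 to 3.07) and also in the female nuclei. Clec7a, the β-glucan receptor dectin-1 of activated microglia, was lower, at 272 and 189 CPM (-0.53, -0.74 to -0.32), with 396 and 230 CPM in female and 248 and 144 CPM in male nuclei. Meis1, a homeobox factor, stood at 53.1 and 17.0 CPM (-1.63, -2.25 to -1.05), and at -0.47 on the log2 scale within subcluster 1. Camk2n1, an inhibitor of a calcium-dependent kinase, stood at 33.7 and 12.4 CPM (-1.44, -2.19 to -0.72), with an interval that included 0 in male nuclei (-3.27 to 0.20), and Tmem120a, a membrane protein of fat cells, at 38.8 and 15.8 CPM (-1.30, -1.96 to -0.64).

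Other large ratios rested on few nuclei. Cd74 stood at 19.4 and 53.2 CPM (1.43, 0.81 to 2.17), with 33 UMIs in 1 male Cxcl12-cKO nucleus, and was at 0.99 without it and at -0.75 with nuclei of 3 or more Gpnmb UMIs counted. Apoc1 had 23 and 193 UMIs, a log2 ratio of 2.06, and 153 of these lay in 1 female Cxcl12-cKO nucleus, without which it was at -0.20. Adarb2, an RNA-editing relative known from interneurons, was at -2.17 and at -1.49 without 1 nucleus. Ribosomal protein genes were higher in Cxcl12-cKO, among them Rpl27 (1.74), Rpl7a (1.52) and Rpl31 (1.42). The nucleus with most UMIs held 24 of the 10 and 69 Rpl27 UMIs, 23 of the 10 and 59 Rpl7a UMIs and 17 of the 13 and 71 Rpl31 UMIs. Rpl27 was at 0.63 with nuclei of 3 or more Gpnmb UMIs, Rpl7a at 0.51 with 10 or more, and Rpl31 at 0.52 after thinning. In sum ribosomal protein genes stood at 3681 and 5271 CPM in the members but at 11277 and 9034 CPM in Gpnmb-zero nuclei. Fibroblast transcripts were lower, with Col1a2, a collagen chain, at 123 and 56.6 CPM, and their part in these differences was not tested. Without the nucleus with most UMIs of each gene, 214 of the 343 higher and 173 of the 309 lower genes stayed past 1.5-fold.

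**Figure D5:**
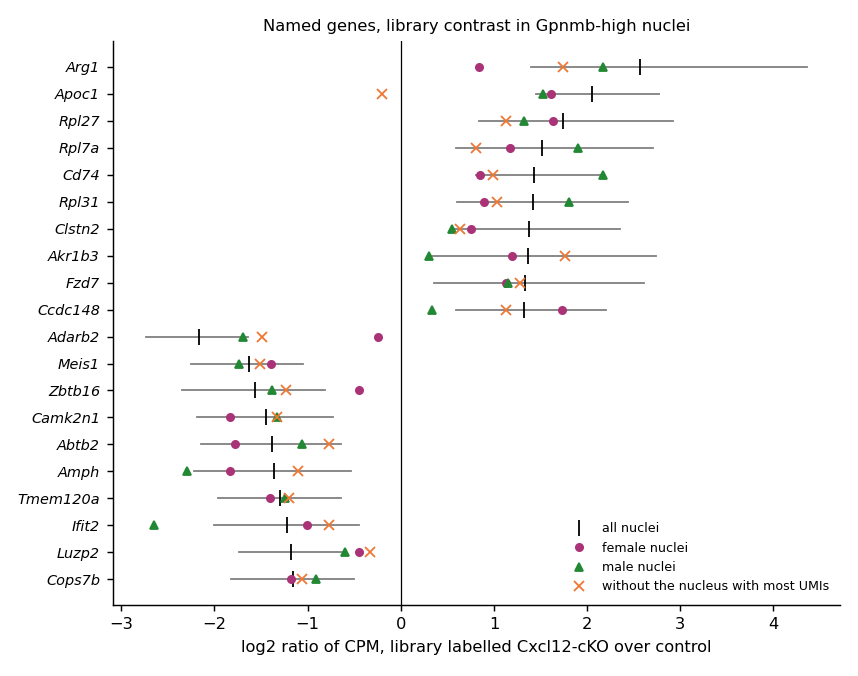
Log2 ratio of CPM in Cxcl12-cKO over control for the 20 genes named by rule in Gpnmb-high nuclei, with ticks and grey 95% counting intervals for all members, dots for female nuclei, triangles for male nuclei and crosses without the nucleus with most UMIs. The crosses of Apoc1 (-0.20) and Clstn2 (0.63) lie far from their ticks, whereas that of Meis1 (-1.52) lies near its tick.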

How the data were processed

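Single-nucleus RNA from the lesion and parenchyma of mice at 21 dpi was counted in 4 matrices, 1 for each region of each library, with UMI counts per gene and nucleus as the authors deposited them, not normalized. Per the submitters' processing notes, Cell Ranger 9.0.0 and GRCm39 were used. Each matrix had 33696 gene features, and 12 tag features were dropped.

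Counts were summed over nuclei per library and scaled to 1000000 gene UMIs (CPM). A gene needed 50 UMIs in the groups compared, and log2 ratios were taken after adding 0.5 UMIs. Shares carry exact Clopper-Pearson intervals and ratios exact conditional Poisson intervals, at 95%, for counting error only. With 1 library per genotype there is no test. A gene was called past 2-fold in both libraries against Gpnmb-zero nuclei, and past 1.5-fold between libraries.

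Subclusters used 2000 variable genes, 20 principal components, 20 neighbours and resolution 0.25 (scanpy 1.11.5, Python 3.11.15). No doublet caller was run. Figures were drawn in matplotlib 3.10.9, arrays and intervals were handled with scipy 1.17.1 and numpy 2.4.6, tables with pandas 2.3.3, and the scripts were tested on simulated data.

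The members, the 34 gene lists (426 genes) and the naming rule were chosen with earlier results of these data known. Named genes were the 15 highest and 10 lowest by pooled log2 ratio among those called against Gpnmb-zero nuclei, and the 10 highest and 10 lowest between libraries with the same sign in both mice. Rule genes, sex-linked genes and unnamed gene models were left out. Other genes come from the lists, and Clec7a, Hmox1, Iigp1 and the subcluster genes were singled out after their values were seen.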

Additional observations from a re-analysis of the deposited data

Results flagged for a closer look

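In 6 values the female and the male mice differed in opposite directions between the libraries, and the difference between the mice was not tested in any of them. The share of subcluster 2 among lesional nuclei had a log2 ratio of Cxcl12-cKO over control of 1.14 in female and -0.13 in male nuclei. Csf3r, the receptor of granulocyte colony-stimulating factor, was at -0.60 and 0.41 (306 and 202 CPM in female, 200 and 267 CPM in male nuclei). Fn1, fibronectin, was at -1.12 and 0.80 (95.7 and 44.1 CPM, then 34.2 and 60.3 CPM). Itgax was at -0.78 and 0.47 (205 and 120 CPM, then 122 and 168 CPM). Erbb4, a neuregulin receptor, was at 1.81 and -0.81 (15.9 and 60.0 CPM, then 68.5 and 38.6 CPM). Spp1 was at -0.31 and 1.28 (556 and 449 CPM, then 207 and 505 CPM), but 154 of its UMIs lay in 1 male Cxcl12-cKO nucleus, and without that nucleus the male value was 0.37.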

How the results depend on the processing

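No paired analysis was possible because each genotype had 1 library. Over 22 settings and 56 results, 6 of the settings chosen after the data were seen, 910 values stayed within the interval of the reported value (for lists, the spread of the median over their genes) or, for counts, within 1.5 times it. Of single genes, 64 values moved and kept their sign, among them Arg1 (0.84), Adarb2 (-0.25) and Luzp2 (-0.45) in female nuclei, Cxcl9 (-0.99) and Cxcl10 (-0.25) in male nuclei, and Meis1 (-0.47) in subcluster 1. The log2 ratio of the share of lesional nuclei was 1.13 at 10 Gpnmb UMIs, 1.62 in female and 0.12 in male nuclei, and that among myeloid nuclei 0.84, 0.95 and 0.14. The 290 higher genes became 577 with no gene minimum. The 884 lower genes became 491 with no other-cell UMI allowed, 529 and 366 in female and male nuclei, 2325 with no minimum, 436 between depth quartiles, 417 against Gpnmb-zero nuclei with Csf1r and no T cell UMI, and 451 against those with a microglial UMI. The resting microglia list was at -2.10 at 10 Gpnmb UMIs and -2.42 against nuclei with a microglial UMI. Between libraries, the higher genes were 152 in male nuclei, 784 at 20 UMIs and 4298 with no minimum, and the lower genes 812 and 3853. In the settings by mouse and by subcluster, the gene minimum was applied anew. The IFNγ list median was -0.51 in female and -0.082 in male nuclei and -0.051 and -0.43 in subclusters 1 and 2. Over the same 18 genes as for all members, the subclusters gave -0.12 and -0.38. The M1-like list median of -0.21 was 0.073 and 0.11 in subclusters 1 and 2, over fewer genes. Over the same 9 genes as for all members it was -0.18 and -0.14. The lysosome list was at 0.17 in male nuclei and -0.025 at 10 Gpnmb UMIs. Signs turned for Cd74 (-0.75 at 3 Gpnmb UMIs), Apoc1 (-0.70 at 10 Gpnmb UMIs, -0.63 at 15 per 10000 UMIs, -0.68 thinned, -0.045 in subcluster 1, -0.20 without 1 nucleus), Luzp2 (1.61 thinned, 0.076 in subcluster 1), Rpl7a (-0.21) and Ifit2 (0.32) in subcluster 1, and Themis (1.64) and Cd226 (2.53) against nuclei with Csf1r and no T cell UMI, which lack them by construction. S100a8 was at 1.39 against nuclei with a microglial UMI. Other causes were not tested. Depth limits genes near the 50-UMI minimum, such as Tlr2, whose counting interval (-1.43 to 0.22) was wider than a 1.5-fold difference.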
